A study of Rattus norvegicus with 6 samples.

Results

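Integrins, laminins and focal adhesion genes were examined in L5 dorsal root ganglia (DRG) of the rat after spinal nerve transection (SNT). The members were chosen by name: 24 integrin chains, 10 laminin chains and 12 genes of focal adhesions, 46 genes in all. A member counted as measured where a transcript cluster of the array was annotated to its symbol alone. This held for 32 of the 46 genes (14 integrin chains, 9 laminin chains and 9 focal adhesion genes), among 13215 genes of the table with such a cluster. The other 14 (Itgae, Itgb7, Itga5, Itga2, Itga6, Itga8, Itga9, Itgav, Itgb3, Itgb5, Lamc3, Tln1, Zyx and Fermt1) were not analysed here, Lamc3 because its clusters carry more than 1 symbol. All animals were Wistar rats: the SNT group was male and was sampled 7 days after the L5 spinal nerve had been cut, and the naive group had no surgery and its sex is not stated. There were 3 SNT and 3 naive arrays, each of poly(A)-enriched RNA from a pool of 4 animals. No sham-operated animals were included, so effects of the surgery and of the nerve cut cannot be told apart. The age of the animals is not given in the sources used here.

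Integrins are receptors made of an alpha and a beta chain that tie the extracellular matrix, or ligands on other cells, to the actin skeleton. Laminins are matrix proteins of basement membranes, each assembled from an alpha, a beta and a gamma chain, and the basement membrane around Schwann cells and their axons is rich in them. Inside the cell, talins and kindlins bind the tails of beta chains and switch the receptor on, while paxillin, vinculin, focal adhesion kinase and integrin-linked kinase build the adhesion and signal from it. In a ganglion, neurons, their glia, fibroblasts, vessel cells and resident immune cells each make their own set of chains. In such bulk tissue, more cells of a type and more RNA per cell cannot be told apart.

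Each array gave a log2 normalised probe intensity for 19418 transcript clusters, and values below are on that scale unless a fold is stated. Array medians lay between 6.18 and 6.31 in SNT and between 6.11 and 6.16 in naive tissue. The array of SNT replicate 1 stood apart from the other SNT arrays: over all clusters it correlated with each of them at r = 0.982, against 0.99 between SNT replicates 2 and 3, and it lay closer to the naive arrays (r = 0.978 to 0.981) than they did (r = 0.957 to 0.969). The injury gene Atf3 checked the labels, at 11.36, 11.52 and 11.63 on the SNT arrays, against 7.74, 7.69 and 7.74 on the naive arrays. Sprr1a, which injured neurons switch on, likewise separated the groups, at 10.15 or above in SNT and 4.67 or below in naive tissue. Among neuronal markers the synaptic protein gene Snap25 stood at 11.78 to 12.32 in SNT and 12.75 to 12.78 in naive ganglia.

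Most of the measured genes were higher after SNT. At a false discovery rate (FDR) of 0.1 over all clusters, 20 of the 32 rose, 3 fell and 9 did not pass the test, where 17.3% of all clusters rose and 14.8% fell. Among the 13215 genes with a cluster annotated to their symbol alone, 2630 rose and 2412 fell. The median log2 difference (SNT minus naive) was 0.44 over the 32 genes and 0.09 over all clusters. The 3 SNT arrays lay above all naive arrays for 22 of them and below for 3, against 26.0% and 18.5% of all clusters. Of the rises 4 were 2-fold or more (Itgb2, Itgam, Itgal and Itgb8), where 1.85% of all clusters were that much higher, and 0 of the falls were, where 2.49% were that much lower. With each array centred on its median, 15 rose and 4 fell, and over all clusters the rises made up 35.5% of the calls in place of 54%. Without naive replicate 2 the rises numbered 13, and without SNT replicate 1 they numbered 22, with 4 falls.

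The largest rises of the 32 genes were those of Itgb2, Itgam and Itgal, integrin chains known from leukocytes. Itgb8 (1.11) and Fermt3 (1.00) rose more than the leukocyte chains Itgax (0.96) and Itga4 (0.81). All 5 measured leukocyte chains rose, with a median log2 difference of 1.52. Itgb2 encodes the beta chain shared by the leukocyte receptors and Itgam, Itgal and Itgax encode alpha chains that pair with it: Itgam marks macrophages and other myeloid cells, Itgal belongs to the lymphocyte receptor that binds intercellular adhesion molecules, and Itgax is known from dendritic cells and macrophages.

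Itgb2 stood at 8.0, 9.27 and 8.40 in SNT replicates 1 to 3, against 6.82, 6.57 and 6.93 in naive replicates 1 to 3, a difference of 1.78 ± 0.31 (standard error, n = 3 arrays per group, 3.44-fold, adjusted p = 0.0105 with limma). Itgam stood at 7.06, 8.09 and 7.66 in SNT, against 5.90, 5.83 and 6.11 in naive ganglia (1.66 ± 0.25, 3.16-fold, adjusted p = 0.00735). For both, every SNT array lay above every naive array by more than the naive arrays differed among themselves. Itgal stood at 7.46, 8.41 and 7.92 in SNT, against 6.44, 6.32 and 6.48 in naive ganglia (1.52 ± 0.23, 2.86-fold, adjusted p = 0.00735). Itgax stood at 6.39, 6.89 and 6.70 in SNT, against 5.79, 5.61 and 5.69 in naive ganglia (0.96 ± 0.14, 1.95-fold, adjusted p = 0.00674). Neither gene overlapped between groups, and in all 4 genes SNT replicate 1 was the lowest and SNT replicate 2 the highest of the SNT arrays.

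Itga4 encodes the alpha chain of the receptor that leukocytes use to bind the vascular ligand Vcam1 and fibronectin, and it is also known from cells of the neural crest. It stood at 6.34, 7.32 and 7.01 in SNT, against 6.05, 6.04 and 6.15 in naive ganglia (0.81 ± 0.23, adjusted p = 0.0484). The groups did not overlap, but SNT replicate 1 was only 0.26 above the naive mean. The call was lost without SNT replicate 3 (adjusted p = 0.114), without naive replicate 1, 2 or 3 (adjusted p = 0.138, 0.134 and 0.108) and after quantile normalisation (adjusted p = 0.105). Fermt3, which encodes the kindlin of blood cells that activates Itgb2 receptors, stood at 7.13, 7.65 and 7.42 in SNT, against 6.39, 6.31 and 6.52 in naive ganglia (1.00 ± 0.14, 1.99-fold, adjusted p = 0.00684). Its groups did not overlap, and its SNT arrays had the same order as those of the leukocyte chains. That order is not particular to leukocyte genes, since Itgb8, Lama4, Pxn and Vcl had it too.

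**Figure D1:**
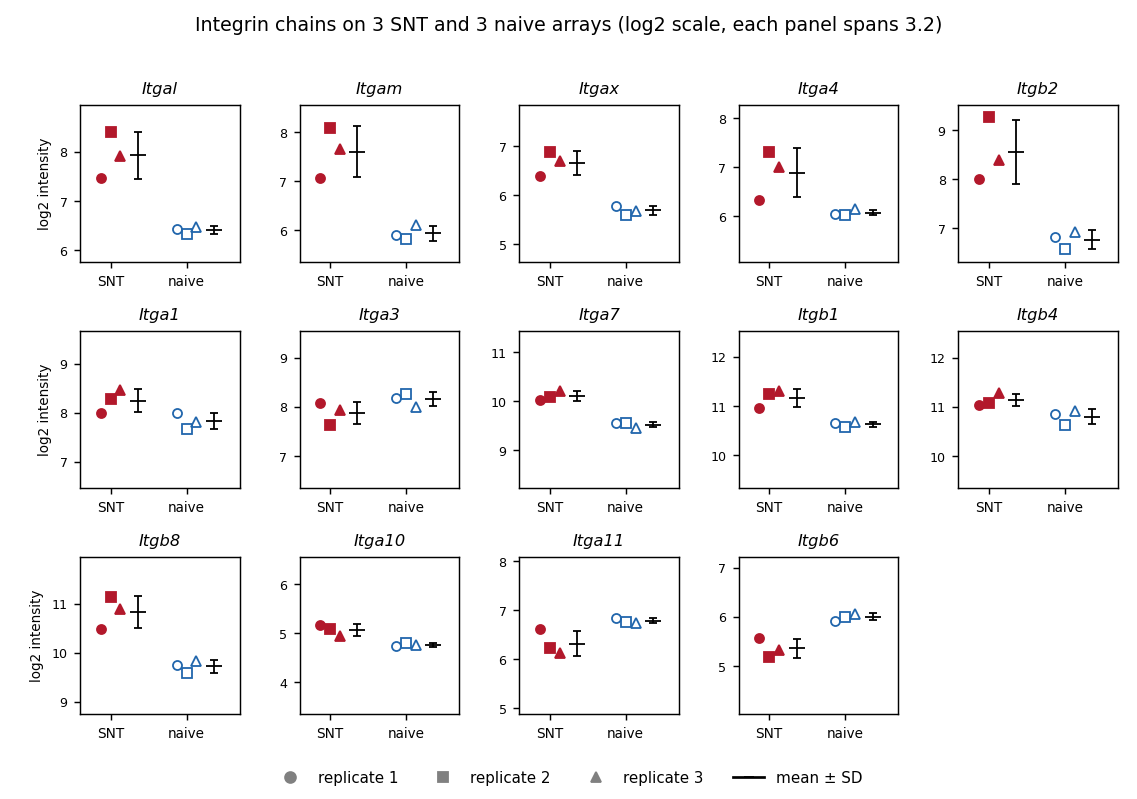
Log2 normalised probe intensity (vertical axis) of the 14 measured integrin chains on each of 3 SNT arrays (filled, left) and 3 naive arrays (open, right), with mean ± SD as black bars; marker shapes give the replicate and each panel spans the same range. Itgb2, Itgam, Itgal and Itgb8 show the widest gaps between groups, whereas the groups overlap for Itga3.

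Itgam and Itgax are neighbours on chromosome 1 of the rat assembly GRCr8, with 0 protein-coding genes between them, and both rose. Their promoter windows (RefSeq, GRCr8, plus strand, around the annotated start) are shown because the pair sits side by side and the letters differ: capitals mark GAGGAA, the core of sites bound by the myeloid factor PU.1 and by related ETS factors, or the AP-1 motif TGANTCA, both read on either strand. The windows are chr1:192089342-192089641 for Itgam and chr1:192149799-192150098 for Itgax.
Itgam: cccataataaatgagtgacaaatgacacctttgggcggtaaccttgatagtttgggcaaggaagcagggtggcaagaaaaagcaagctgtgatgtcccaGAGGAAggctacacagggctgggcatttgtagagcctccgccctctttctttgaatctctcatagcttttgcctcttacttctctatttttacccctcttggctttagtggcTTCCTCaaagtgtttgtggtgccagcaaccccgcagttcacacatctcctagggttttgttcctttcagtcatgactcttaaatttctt
Itgax: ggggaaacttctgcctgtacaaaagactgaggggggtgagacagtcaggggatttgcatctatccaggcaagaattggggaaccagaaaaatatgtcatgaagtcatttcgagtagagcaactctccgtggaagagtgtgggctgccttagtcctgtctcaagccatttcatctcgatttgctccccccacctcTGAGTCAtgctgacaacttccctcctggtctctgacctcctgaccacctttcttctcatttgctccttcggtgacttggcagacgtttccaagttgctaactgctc
The window of Itgam held GAGGAA at 2 places, starting 151 and 39 bases before the start, and no AP-1 match, whereas that of Itgax held 1 AP-1 match, 56 bases before the start, and no GAGGAA. Among all 33469 windows of the same length, GAGGAA occurs in 27.6% and TGANTCA in 7.33%. Of the 32 genes 23 had a window in that table, of which 9 held GAGGAA and 2 held TGANTCA. Only the first window listed for a gene was read, whereas the shares count every window, so other starts of a gene were not examined. These matches are descriptions of letters and not of binding.

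The leukocyte chains did not all change by the same amount. Within each array the log2 ratio of Itgb2 to Itgb1, the beta chain of most other receptors, was 0.89, 1.89 and 0.95 above its naive mean in SNT replicates 1 to 3, while naive arrays deviated by at most 0.15. The ratio of Itgax to Itgam fell short of its naive mean by more than any naive array did, at -0.42, -0.95 and -0.72 in SNT, against 0.14, 0.03 and -0.17 in naive ganglia. The ratio of Itgam to Itgal, at 0.07, 0.14 and 0.21 in SNT, against -0.08, -0.02 and 0.10 in naive ganglia, overlapped between groups. These pairs were chosen after their values were seen, and with 3 arrays in each group no exact permutation test can reach a p under 0.1.

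Markers of macrophages and monocytes, and most of those of T and natural killer cells, rose with these chains. All 14 measured macrophage and monocyte markers rose (median 1.93, 13 of 14 without naive replicate 1 or 2), and their summed linear intensity was 7850 to 15043 in SNT, against 2545 to 3709.7 in naive ganglia. Of 9 measured T and natural killer cell markers 6 rose and 0 fell (median 0.61). Their sums were 949.8 to 1460.5 in SNT and 337 to 377 in naive ganglia. The rises among them numbered 9 without SNT replicate 1 and 5 when any other array was left out. They also numbered 5 with median centring, cyclic loess or quantile normalisation. The pan-leukocyte gene Ptprc, which encodes CD45, was counted among the 14 macrophage and monocyte markers. It stood at 7.49, 8.99 and 8.33 in SNT, against 6.88, 6.48 and 7.19 in naive ganglia (1.42 ± 0.37, adjusted p = 0.0364, and 0.105 and 0.119 without naive replicate 1 or 2). The log2 ratio of Itgb2 to Ptprc was 0.58, 0.36 and 0.15 above its naive mean in SNT, against 0.02, 0.16 and -0.18 in naive ganglia, so that the groups overlapped. By SNT replicate 1 to 3, the leukocyte chains had a median difference of 1.05, 2.00 and 1.50 against the naive mean and the macrophage markers one of 1.37, 2.32 and 1.95. Without SNT replicate 1 the median of the leukocyte chains was 1.75. The part of leukocyte number in the rise of the chains was not tested.

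Markers of neutrophils and B cells did not share that rise. Of 6 measured neutrophil markers 1 rose (Csf3r, 0.65 ± 0.10) and 0 fell (2 fell without naive replicate 1). Their median was -0.33, and their sum was 457.2 to 513.7 in SNT and 426.1 to 933.3 in naive ganglia. Of 2 measured B cell markers 0 rose and 0 fell (median -0.59), with sums of 92.6 to 114.1 in SNT and 121.7 to 333.1 in naive ganglia. Platelet markers, 5 of which were measured, gave 0 calls (1 rose without SNT replicate 1), with sums of 602.7 to 943.8 in SNT and 433.1 to 655.7 in naive ganglia. No background level was computed here, so a low value may be nonspecific signal.

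**Figure D2:**
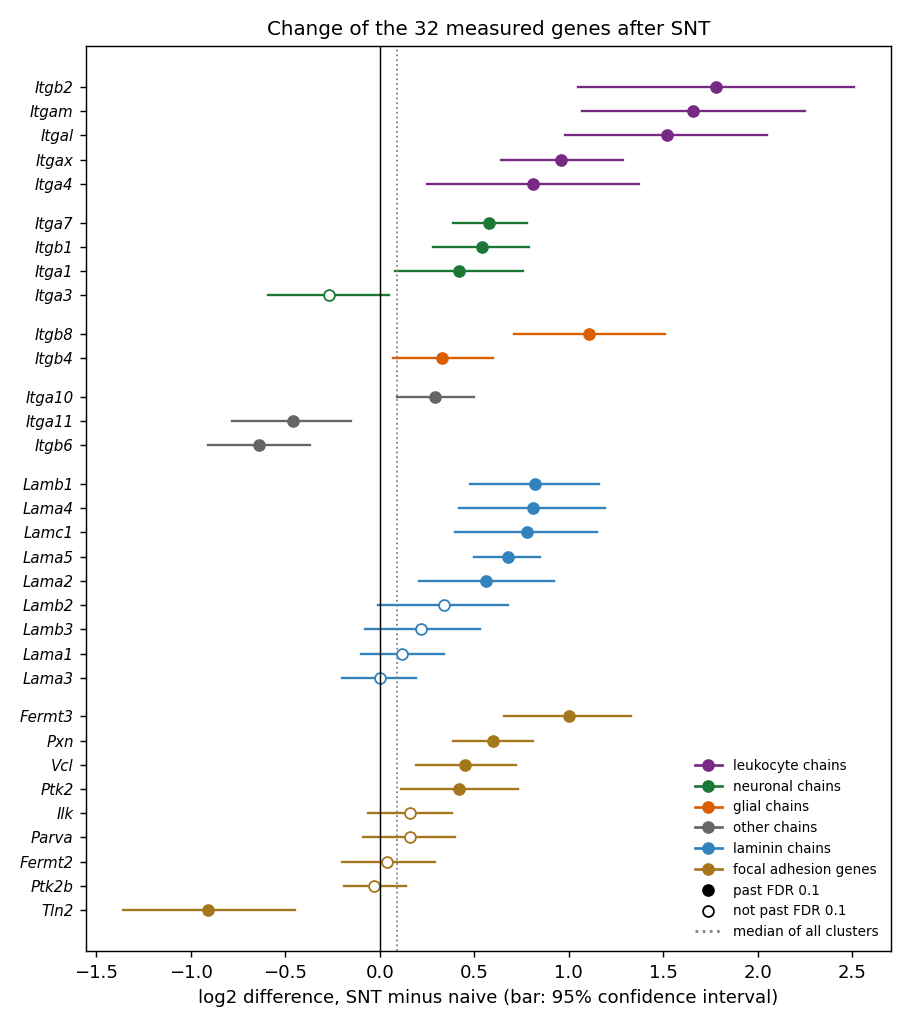
Log2 difference, SNT minus naive (horizontal axis), with its 95% confidence interval for each of the 32 measured genes, grouped by role; filled points passed FDR 0.1, open points did not, and the dotted line is the median of all clusters (0.09). Leukocyte chains run from 0.81 to 1.78, whereas Itgb6, Itga11 and Tln2 lie below 0.

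Chains known from sensory neurons changed less. None of them is restricted to neurons, since Schwann cells, vessels and fibroblasts make some too. Of 4 measured neuronal chains 3 rose and 0 fell, with a median of 0.48. Itga7 encodes a laminin receptor chain known from muscle and from injured neurons of rodents. It stood at 10.03, 10.08 and 10.22 in SNT, against 9.55, 9.56 and 9.46 in naive ganglia (0.58 ± 0.08, 1.50-fold, adjusted p = 0.00687). The 3 SNT arrays lay close together (SD 0.10) and SNT replicate 1, at 0.51 above the naive mean, moved almost as far as replicates 2 and 3, at 0.55 and 0.69.

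Itgb1, the beta partner of Itga7 and of most matrix-binding alpha chains, stood at 10.96, 11.24 and 11.30 in SNT, against 10.65, 10.57 and 10.68 in naive ganglia (0.54 ± 0.11, 1.45-fold, adjusted p = 0.0155). The groups did not overlap, and the ratio of Itga7 to Itgb1 was within 0.17 of its naive mean on every SNT array and within 0.10 on every naive array. Itga1, the alpha chain of a receptor for collagen and laminin, stood at 8.0, 8.28 and 8.47 in SNT, against 8.0, 7.68 and 7.82 in naive ganglia (0.42 ± 0.14, adjusted p = 0.0801). The lowest SNT array and the highest naive array of Itga1 were equal to 2 decimals. Its call was lost with median centring (adjusted p = 0.243), with the replicate number as a block (adjusted p = 0.14), without SNT replicate 2 or 3 (adjusted p = 0.164 and 0.169) and without naive replicate 1, 2 or 3 (adjusted p = 0.109, 0.226 and 0.184).

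Itga3, the alpha chain of another laminin receptor, went the other way without passing the test. It stood at 8.08, 7.64 and 7.94 in SNT, against 8.19, 8.27 and 8.01 in naive ganglia (-0.27 ± 0.13, 95% confidence interval -0.59 to 0.05, adjusted p = 0.192), and the groups overlapped. It was called lower with median centring (adjusted p = 0.0963) and without SNT replicate 1 (adjusted p = 0.0817). Within each array the log2 ratio of Itga7 to Itga3 was 0.58, 1.07 and 0.91 above its naive mean in SNT, against deviations of -0.01, -0.08 and 0.09 in naive ganglia.

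Most sensory neuron markers fell in the same tissue. Of 10 measured markers 7 fell and 0 rose (median -0.80), and their summed linear intensity was 26054 to 36074 in SNT, against 45191 to 46972 in naive ganglia. Tubb3 (0.04), Uchl1 (-0.27) and Prph (-0.23) did not pass the test. The falls numbered 6 with quantile normalisation or without naive replicate 1 or 2, and 9 with median centring or without SNT replicate 3. With cyclic loess 7 fell and 1 (Tubb3) rose. By SNT replicate 1 to 3 these markers had a median difference of -0.48, -1.08 and -0.83 against the naive mean, and the neuronal chains one of 0.25, 0.50 and 0.65. Whether the loss of marker RNA bears on the level of any chain was not tested.

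Both measured chains of glial cells rose, Itgb8 more than Itgb4. Itgb8 pairs with an alpha V chain in a receptor that frees active TGF-beta from its latent form, and it is known from glia. It stood at 10.49, 11.13 and 10.89 in SNT, against 9.75, 9.58 and 9.83 in naive ganglia (1.11 ± 0.17, 2.16-fold, adjusted p = 0.00772). Itgb4, which pairs with Itga6 in a laminin receptor of myelinating Schwann cells and perineurial cells, stood at 11.05, 11.08 and 11.28 in SNT, against 10.86, 10.63 and 10.92 in naive ganglia (0.33 ± 0.11, 1.26-fold, adjusted p = 0.0734). The groups did not overlap for either, and the ratio of Itgb8 to Itgb4 was 0.52, 1.13 and 0.69 above its naive mean in SNT, against deviations of at most 0.03 in naive ganglia. The call of Itgb4 was lost with median centring (adjusted p = 0.252), without SNT replicate 2 or 3 (adjusted p = 0.112 and 0.159) and without naive replicate 1, 2 or 3 (adjusted p = 0.153, 0.211 and 0.103). That of Itgb8 held in each of the 15 alternative settings.

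Glial markers did not share 1 direction. Of 9 measured Schwann cell markers 4 rose and 1 fell (median 0.02, 2 rose without naive replicate 1 or 2), with summed intensities of 21155 to 23632 in SNT and 20502 to 24203 in naive ganglia. Of 7 measured satellite glia markers 2 rose and 3 fell (median -0.16, 1 rose without naive replicate 1 or 2), with sums of 4593 to 4960.2 in SNT and 5571 to 5949 in naive ganglia. Gfap, an intermediate filament of reactive glia, rose by 1.93 ± 0.19 (adjusted p = 0.00391), and the fatty acid-binding protein Fabp7 fell by 1.25 (adjusted p = 0.016). Of 4 measured perineurial markers 3 rose (1 without SNT replicate 3, without naive replicate 1 or 2 or with median centring), with sums of 2112 to 3006 in SNT and 1559.6 to 1986 in naive ganglia. The part of these cells in the rise of Itgb8 and Itgb4 was not tested.

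**Figure D3:**
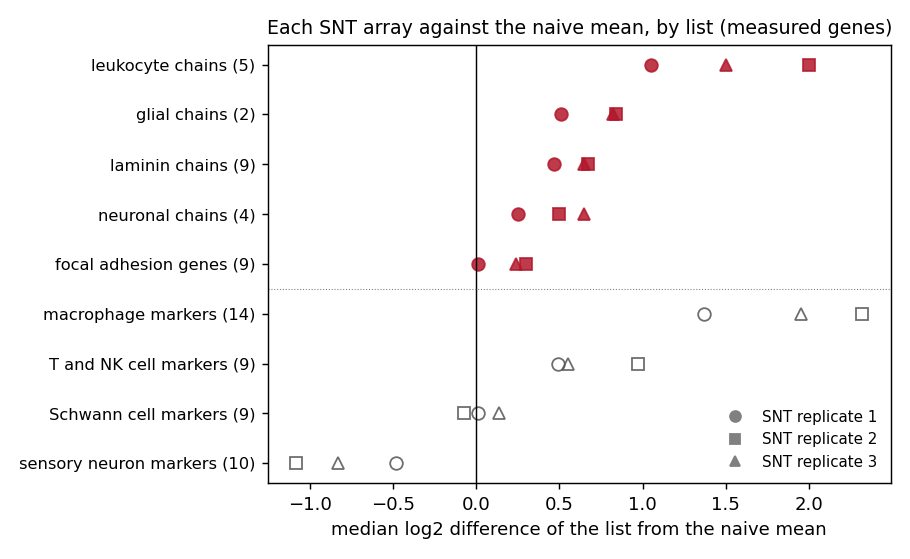
Median log2 difference from the naive mean (horizontal axis) on each SNT array for 5 groups of the genes (filled, above the dotted line) and 4 lists of cell type markers (open, below it), with the number of measured genes in brackets. Leukocyte chains lie at 1.05 to 2.00 and focal adhesion genes at 0.01 to 0.30, with SNT replicate 1 lowest in each of the 5 groups.

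Across the groups of chains, the median difference was higher for leukocyte than for glial chains, and higher for glial than for neuronal chains, on each SNT array. By SNT replicate 1 to 3 it was 1.05, 2.00 and 1.50 for leukocyte chains, 0.51, 0.84 and 0.82 for glial chains, and 0.25, 0.50 and 0.65 for neuronal chains. The glial group rests on 2 genes and the neuronal group on 4, and the order was not tested. The place of the glial group comes from Itgb8 (1.11). Itgb4 (0.33) rose less than the neuronal chains Itga7 (0.58), Itgb1 (0.54) and Itga1 (0.42), and only Itga3 (-0.27) lay below it.

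Of the 3 measured chains outside these classes, Itga11 and Itgb6 were lower after SNT and Itga10 higher. Itgb6, the beta chain of an epithelial receptor that also activates TGF-beta, stood at 5.57, 5.19 and 5.32 in SNT, against 5.92, 6.00 and 6.06 in naive ganglia (-0.64 ± 0.11, adjusted p = 0.0112). No SNT array reached a naive one, and the call held in each alternative. Itga11, a collagen receptor chain of fibroblasts, stood at 6.61, 6.24 and 6.13 in SNT, against 6.85, 6.76 and 6.75 in naive ganglia (-0.46 ± 0.13, adjusted p = 0.0466). Itga10, a collagen receptor chain of cartilage, stood at 5.18, 5.08 and 4.95 in SNT, against 4.74, 4.81 and 4.77 in naive ganglia (0.29 ± 0.09, adjusted p = 0.0502). The call of Itga11 was lost without SNT replicate 2 or 3 (adjusted p = 0.117 and 0.103) or without naive replicate 1, 2 or 3 (adjusted p = 0.151, 0.121 and 0.111). That of Itga10 was lost without SNT replicate 2 (adjusted p = 0.104) or naive replicate 1, 2 or 3 (adjusted p = 0.173, 0.123 and 0.142), with cyclic loess, quantile normalisation or median centring (adjusted p = 0.141, 0.153 and 0.108) and with the replicate number as a block (adjusted p = 0.127).

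Laminin chains rose in 5 of 9 cases and fell in 0, where 17.3% of all clusters rose and 14.8% fell. Their median was 0.56, against 0.09 over all clusters. The 5 were Lama2, Lama4 and Lama5, the alpha chains of endoneurial, vascular and other nerve basement membranes, and Lamb1 and Lamc1, the beta and gamma chains with which they assemble. Lamb1 stood at 9.95, 10.30 and 10.30 in SNT, against 9.40, 9.15 and 9.54 in naive ganglia (0.82 ± 0.14, 1.77-fold, adjusted p = 0.0107). Lamc1 stood at 10.59, 11.10 and 10.98 in SNT, against 10.17, 9.90 and 10.25 in naive ganglia (0.78 ± 0.16, 1.71-fold, adjusted p = 0.0163). Neither gene overlapped between groups, and by SNT replicate 1 to 3 the difference from the naive mean was 0.58, 0.94 and 0.93 for Lamb1 and 0.48, 0.99 and 0.86 for Lamc1.

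The promoter windows of Lamb1 (chr6:53562846-53563145, plus strand) and Lamc1 (chr13:68051937-68052236, minus strand, both GRCr8, RefSeq) are shown because these chains are joined in 1 protein and rose by similar amounts; capitals mark GAGGAA on either strand.
Lamb1: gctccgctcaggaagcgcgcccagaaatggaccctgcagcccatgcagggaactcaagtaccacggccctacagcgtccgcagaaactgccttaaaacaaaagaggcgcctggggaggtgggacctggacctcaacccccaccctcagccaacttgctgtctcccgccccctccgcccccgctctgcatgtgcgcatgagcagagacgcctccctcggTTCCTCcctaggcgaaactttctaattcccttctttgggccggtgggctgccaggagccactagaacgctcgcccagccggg
Lamc1: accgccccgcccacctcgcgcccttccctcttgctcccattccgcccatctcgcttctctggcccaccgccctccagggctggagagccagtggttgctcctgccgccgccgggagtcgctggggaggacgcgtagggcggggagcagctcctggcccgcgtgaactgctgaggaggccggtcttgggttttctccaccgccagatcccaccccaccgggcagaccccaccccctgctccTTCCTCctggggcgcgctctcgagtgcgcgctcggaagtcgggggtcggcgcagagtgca
Both held 1 such match, beginning 32 bases before the start in Lamb1 and 10 bases before it in Lamc1, and neither held TGANTCA. Of the 8 laminin chains with a window 5 held GAGGAA (Lama3, Lama5, Lamb1, Lamb3 and Lamc1), and 27.6% of all windows hold it. Among these 5 are Lama3 and Lamb3, which did not pass the test. The windows of Lama2 and Lama4, which rose, held no GAGGAA. Whether the match bears on the rises was not tested.

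Lama4, an alpha chain of vessels and of Schwann cells, stood at 9.01, 9.54 and 9.50 in SNT, against 8.61, 8.37 and 8.64 in naive ganglia (0.81 ± 0.16, 1.75-fold, adjusted p = 0.0156). Lama2, the alpha chain of the Schwann cell basement membrane, whose loss in humans and mice causes muscular dystrophy with neuropathy, stood at 10.40, 10.78 and 10.71 in SNT, against 10.14, 9.81 and 10.25 in naive ganglia (0.56 ± 0.15, 1.48-fold, adjusted p = 0.038). The groups did not overlap, but the gap of Lama2 was smaller than the spread of its naive arrays, and its call was lost when either replicate 2 was left out (adjusted p = 0.102 without the SNT one and 0.11 without the naive one). Lama5 stood at 7.41, 7.41 and 7.44 in SNT, against 6.70, 6.70 and 6.82 in naive ganglia (0.68 ± 0.07, 1.60-fold, adjusted p = 0.00438). It had the smallest adjusted p of the 32 genes, its SNT arrays lay within 0.03 of each other, and SNT replicate 1 moved as far as the others (0.67, 0.67 and 0.70).

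The remaining laminin chains did not pass the test. Lamb2, a beta chain that can replace Lamb1, stood at 9.11, 9.14 and 9.47 in SNT, against 8.96, 8.68 and 9.08 in naive ganglia (0.34 ± 0.14, 95% confidence interval -0.01 to 0.68, adjusted p = 0.141). Its arrays did not overlap between groups, and it passed with cyclic loess (adjusted p = 0.0737) and quantile normalisation (adjusted p = 0.0722). Lama3 and Lamb3, chains of epithelial laminin, differed by 0.00 (95% confidence interval -0.20 to 0.19) and 0.22 (-0.08 to 0.53), and Lama1, an embryonic alpha chain, by 0.12 (-0.10 to 0.34). For Lamb3 the SNT arrays read 5.76, 5.32 and 5.35, against 5.29, 5.23 and 5.23 in naive ganglia, so that SNT replicate 1 alone made most of that difference.

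Marker RNA of other cell types that make matrix was counted in the same arrays. Of 6 measured fibroblast markers 4 rose and 0 fell (median 0.63, 2 rose with median centring, without SNT replicate 2 or 3 or without naive replicate 1 or 2), with sums of 12323 to 15013 in SNT and 9785 to 12300.0 in naive ganglia. Of 6 measured endothelial markers 2 rose (median 0.18, 0 with median centring or without naive replicate 1 or 2, and 1 without SNT replicate 2 or naive replicate 3), with sums of 1299 to 1339.8 in SNT and 1113 to 1207 in naive ganglia. Of 7 measured pericyte and smooth muscle markers 3 rose (median 0.18), with sums of 2651 to 3346 in SNT and 2312 to 2686 in naive ganglia. Of 4 measured skeletal muscle markers 0 rose and 0 fell (2 fell without SNT replicate 3). Their sums were 611.1 to 1333.6 in SNT and 673.2 to 729.5 in naive ganglia. By SNT replicate 1 to 3 their median difference from the naive mean was -0.15, -0.11 and 0.96, so only replicate 3 was raised. The part of these cell types in the laminin rises was not tested.

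**Figure D4:**
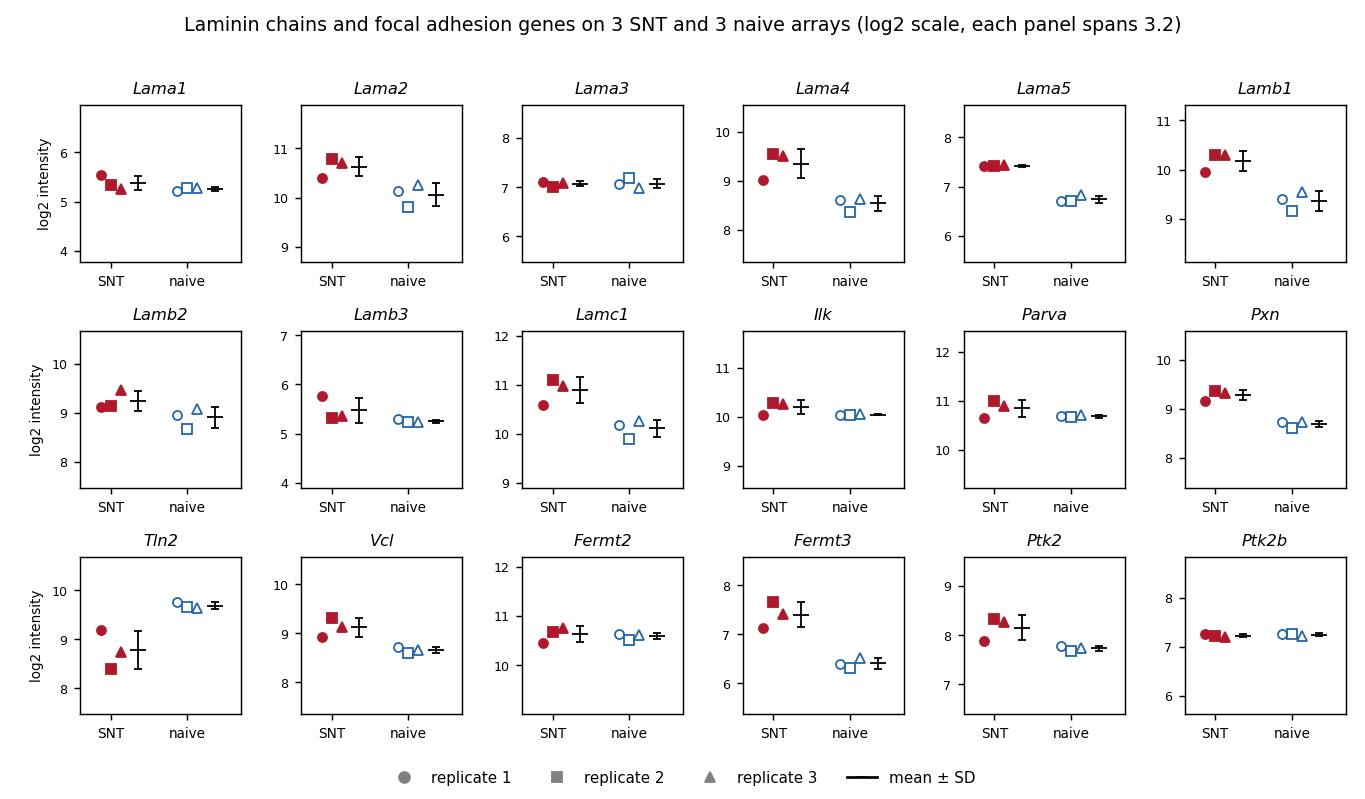
Log2 normalised probe intensity (vertical axis) of the 9 measured laminin chains and 9 measured focal adhesion genes on each of 3 SNT arrays (filled, left) and 3 naive arrays (open, right), with mean ± SD as black bars; marker shapes give the replicate and each panel spans the same range. Lama5 shows the tightest SNT arrays (7.41 to 7.44, against 6.70 to 6.82 in naive ganglia), and Tln2 is the 1 gene of this plot that fell.

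Focal adhesion genes were split. Of the 9 measured, 4 rose (Fermt3 among them) and 1 fell, where 17.3% of all clusters rose and 14.8% fell. The group's median was 0.16, near the 0.09 of all clusters, and with median centring 2 of the group rose and 1 fell. Pxn, which encodes the scaffold paxillin, stood at 9.16, 9.37 and 9.33 in SNT, against 8.72, 8.61 and 8.72 in naive ganglia (0.60 ± 0.09, 1.52-fold, adjusted p = 0.00727). Vcl encodes vinculin, which links talin to actin, and stood at 8.92, 9.31 and 9.13 in SNT, against 8.73, 8.61 and 8.66 in naive ganglia (0.45 ± 0.11, 1.37-fold, adjusted p = 0.0297). The groups did not overlap for either, and the call of Vcl was lost without naive replicate 2 (adjusted p = 0.108) and with median centring (adjusted p = 0.11). Ptk2, the focal adhesion kinase, stood at 7.87, 8.32 and 8.26 in SNT, against 7.78, 7.67 and 7.73 in naive ganglia (0.42 ± 0.13, adjusted p = 0.0584), with SNT replicate 1 only 0.14 above the naive mean. Its call was lost with median centring (adjusted p = 0.195), with the replicate number as a block (adjusted p = 0.104), without SNT replicate 2 or 3 (adjusted p = 0.14 and 0.134) and without naive replicate 1, 2 or 3 (adjusted p = 0.138, 0.166 and 0.144). The rises in the group numbered 2 without naive replicate 2 and 6 without SNT replicate 1, when Ilk and Parva were added (adjusted p = 0.0406 and 0.0467).

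Tln2, which encodes a talin made in neurons, muscle and other tissues, was the 1 focal adhesion gene that fell. It stood at 9.19, 8.40 and 8.75 in SNT, against 9.76, 9.66 and 9.63 in naive ganglia (-0.91 ± 0.19, adjusted p = 0.0178), so that naive ganglia were 1.87-fold higher. Its SNT arrays all lay below the naive arrays, and the call held in each alternative. By SNT replicate 1 to 3 its difference from the naive mean was -0.50, -1.28 and -0.94, and the median of the sensory neuron markers was -0.48, -1.08 and -0.83. Whether the 2 are linked was not tested.

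The other 4 focal adhesion genes did not pass the test. Ilk and Parva, partners in the complex of integrin-linked kinase, differed by 0.16 ± 0.09 and 0.16 ± 0.10, with 95% confidence intervals of -0.06 to 0.38 and -0.09 to 0.40. Both read at or below the naive mean on SNT replicate 1 and 0.20 to 0.30 above it on replicates 2 and 3, and both passed with quantile normalisation and cyclic loess. Fermt2, the kindlin of most cells outside the blood, differed by 0.04 (-0.20 to 0.29), and within each array the log2 ratio of Fermt3 to Fermt2 was 0.86, 1.16 and 0.84 above its naive mean in SNT, against deviations of at most 0.08 in naive ganglia. Ptk2b, the kinase related to Ptk2, differed by -0.03 (-0.19 to 0.14), with all 6 arrays between 7.20 and 7.27.

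Related genes outside the 46 were counted from lists of the same pathway. Of 16 measured matrix ligands and basement membrane genes 9 rose and 1 fell (median 0.51). Thbs2, a thrombospondin of fibroblasts, rose by 2.58 ± 0.31 (adjusted p = 0.00525), Col18a1, a basement membrane collagen, by 1.64 ± 0.21 (adjusted p = 0.00549), the proteoglycan Agrn by 0.73 ± 0.10 (adjusted p = 0.0059) and fibronectin, Fn1, a ligand of many integrins, by 1.85 ± 0.25 (adjusted p = 0.00643). Fn1 stood at 11.36, 12.22 and 12.06 in SNT, against 10.08, 9.70 and 10.32 in naive ganglia. The matrix protein Fbln2 fell (-0.83 ± 0.16, adjusted p = 0.0133). Of 12 measured ligands of leukocyte integrins 3 rose and 2 fell (median 0.10), near the shares of all clusters (17.3% and 14.8%) and their median of 0.09. Icam1, a ligand of Itgal and Itgam receptors, stood at 8.15, 8.41 and 8.37 in SNT, against 7.35, 7.30 and 7.34 in naive ganglia (0.98 ± 0.09, 1.97-fold, adjusted p = 0.00327). Icam2 rose (0.67 ± 0.11, adjusted p = 0.0103), the call of Icam5 (0.29 ± 0.10, adjusted p = 0.0888) held without SNT replicate 2 and was lost without any other array, leaving 2 rises, and Cdh1, a cadherin bound by the Itgae receptor, and Thy1, a surface protein of neurons, fell (-0.75 ± 0.13 and -0.70 ± 0.14). Vcam1, the ligand of Itga4 receptors, differed by 0.10 ± 0.12 (adjusted p = 0.578).

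Among 43 measured adaptors and kinases of adhesions other than those above, 21 rose and 4 fell (median 0.24). The actin-binding filamin Flnc (1.46 ± 0.16, adjusted p = 0.0046), its partner Fblim1 (0.95 ± 0.13, adjusted p = 0.0061) and Parvg, the parvin of blood cells (1.19 ± 0.20, adjusted p = 0.0105), rose. Enah, an actin regulator of growth cones (-0.66 ± 0.10, adjusted p = 0.00783), and Tns1, a tensin (-0.39 ± 0.08, adjusted p = 0.0188), fell. The rises of this list numbered 13 with median centring and 13 and 12 without naive replicate 1 or 2. Of 13 other laminin receptors and partners of integrins 4 rose and 1 fell (median 0.15, 7 rose and 0 fell with cyclic loess). For comparison with both lists, 17.3% of all clusters rose and 14.8% fell, with a median of 0.09. The syndecans Sdc1 (1.57 ± 0.12, 2.96-fold, adjusted p = 0.00235) and Sdc4 (0.84 ± 0.11, adjusted p = 0.00565), which are proteoglycan co-receptors of the matrix, the tetraspanin Cd63 (1.02 ± 0.18, adjusted p = 0.0113) and the adhesion molecule Mcam (0.49 ± 0.10, adjusted p = 0.0176) rose. Bcam, a laminin receptor of the immunoglobulin family, fell (-0.30 ± 0.10, adjusted p = 0.0744), a call lost without SNT replicate 2 or 3 (adjusted p = 0.153 and 0.118), without naive replicate 1, 2 or 3 (adjusted p = 0.212, 0.207 and 0.122), and with cyclic loess and quantile normalisation (adjusted p = 0.304 and 0.33).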

How the data were processed

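RNA of L5 DRG pools was hybridised to Affymetrix Rat Exon 1.0 ST arrays. The deposited values were log2 normalised probe intensities of transcript clusters, which the authors made in R with oligo by RMA (background correction, quantile normalisation and median polish); tool versions and this table's probeset confidence level were not stated. RMA tends to compress differences of dim and saturated probes. Control probes were not used, arrays have no read depth, and 3 arrays per group limit the precision. Symbols came from the platform annotation, and 32 of 32 measured members matched a RefSeq gene identifier.

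SNT was compared with naive by lmFit and eBayes (limma 3.58.1, R 4.3.3; 2.81 prior degrees of freedom), two-sided, with Benjamini-Hochberg adjustment over 19418 clusters and FDR 0.1, as in the study's methods, which kept the most variable cluster per gene; here all clusters were tested. Alternatives were other normalisations, filters, cluster choices, moderation, array weights, a replicate block, FDR 0.05 and leaving out each array. The cluster with the highest mean stood for a gene. Values on each array are given for integrin chains past the threshold and for the leading laminin and adhesion genes, and pathway genes were named by smallest adjusted p. Values printed for uncalled members were added afterwards. The procedure was also run on simulated data with independent normal noise and few changed clusters. That run does not measure its error rate on these arrays, where 32.1% of all clusters were called. Members, lists and tests were chosen with earlier results of these data known. Pools were independent.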

Additional observations from a re-analysis of the deposited data

How the results depend on the processing

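Of 15 alternative settings, none reversed a called gene. Of the 23 called genes, 15 kept their call throughout, and 4 genes without a call gained one in at least 1 setting. With median centring 1 glial chain and 2 focal adhesion genes rose, and at FDR 0.05 1 glial chain rose. Leaving out 1 array in turn gave 13 to 22 rises and 2 to 4 falls over the 32 genes, 4 to 5 leukocyte chains, 1 to 2 glial chains and 2 to 6 focal adhesion genes that rose, with medians of 1.27 to 1.75 for leukocyte, 0.39 to 0.58 for neuronal and 0.64 to 0.83 for glial chains. Over all clusters 3367 rose and 2865 fell, against 1869 and 3403 with median centring, 1643 and 1856 without naive replicate 1, 1855 and 1890 without naive replicate 2, and 2113 and 2133 without naive replicate 3. The causes were not tested. Same-numbered arrays share only a number: their deviations correlated at r = -0.0747, -0.149 and 0.054, and with the replicate number as a block 17 genes rose and 3 fell, the calls of Itga1, Itga10 and Ptk2 being lost and no other call of the 32 genes changed. A pool of animals on each array, 3 arrays per group and no background level limit what can be said of small differences and of dim genes such as Itga10, Itgb6 and Lamb3.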
